A study of Homo sapiens with 36 samples.

Results

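The human beta-globin cluster and its upstream control region were followed across CUT&Tag peak lists of the transcription factor GATA2. The members are the 5 globin genes HBB, HBD, HBG1, HBG2 and HBE1, and every peak whose summit lay in a window of 120 kb that starts at position 5200000 of hg38 chromosome 11. That window held 81 of the 120964 deposited peaks. Merged where they overlapped by at least 1 bp, they formed 8 of the 17277 sites of the series, and 21 of 28 libraries had at least 1 of them. The window was set by coordinates, not by a measured value of GATA2 binding. Earlier results of these data were known when the members were chosen.

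The cells were HUDEP-2, an immortalised human erythroid progenitor line, grown with Epo, SCF, doxycycline and dexamethasone and sorted for GFP after lentiviral infection. The 28 libraries form 7 groups of 4. With an in-house anti-GATA2 antibody, the groups were GATA2-low cells with HA-tagged GATA2 T354M (HA-T354M), GATA2-low cells with HA-tagged GATA2 (HA-GATA2), GATA2-low cells with the empty vector, and wild-type cells with the empty vector. With a commercial anti-HA antibody, the groups were the same 3 kinds of GATA2-low cells. All 7 groups carried a lentiviral vector, and the labels name no separate cultures. Every p-value below therefore reflects the scatter among these libraries alone, and that scatter may be technical. T354M replaces a residue of a GATA2 zinc finger, the part of the protein that contacts DNA. Anti-GATA2 does not tell the vector's protein from the GATA2 that the cells still make, whereas anti-HA reads only the tagged protein.

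GATA factors bind DNA motifs with the core letters GATA, and erythroid cells use GATA2 early and GATA1 later in their maturation. The beta-globin genes lie in the order in which they are used in development. HBE1 makes the embryonic chain, HBG1 and HBG2 the fetal gamma chains, HBD the minor adult delta chain and HBB the major adult beta chain. A locus control region upstream of HBE1 holds several DNase hypersensitive sites, named HS, which act as enhancers of the whole cluster. HS2, HS3 and HS4 are known as sites bound by GATA1 in erythroid cells.

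The only peak in the promoter of a member gene was at HBD, in a single library, and its sequence is shown because it is the promoter the data bear on. The RefSeq promoter of HBD (GRCh38.p14, minus strand, chr11:5234434-5234733, 300 bases) is printed 5′ to 3′ with its 1 GATA match in capitals.
HBD promoter: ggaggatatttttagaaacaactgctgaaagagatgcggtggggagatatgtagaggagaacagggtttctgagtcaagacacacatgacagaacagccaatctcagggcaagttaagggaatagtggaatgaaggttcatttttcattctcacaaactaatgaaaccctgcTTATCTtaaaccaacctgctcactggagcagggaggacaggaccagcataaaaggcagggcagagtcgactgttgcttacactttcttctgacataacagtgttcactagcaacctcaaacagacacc
The capitals are TTATCT, which reads AGATAA on the opposite strand, at bases 173 to 178 of the printed run and 73 bp upstream of the HBD start. The search used AGATAA, its variant with a T in front (TGATAA), its variant with a G at the end (AGATAG) and the variant with both (TGATAG), on both strands, and 25% of 35116 promoters of the same length held at least 1 of them. AGATAA alone was in 10.3%. The summit fell on base 84 of the printed run, 89 bp from the GATA match. The letters CCAAT, which 34.6% of promoters held, lay at bases 98 to 102, 149 bp upstream of the start and 14 bp from the summit. Whether they act as a CCAAT box was not tested. The pattern CANNTG, the E-box read by basic helix-loop-helix factors and found in 68.7% of promoters, matched as CACATG at bases 83 to 88, over the summit itself, and again as CAACTG at bases 19 to 24. CACCC, the core of the box that KLF factors read, had no match in this window and 59.9% of promoters held it.

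The 8 sites lay in 3 places. From the HBB end, 3 were among the globin genes. The first, chr11:5224663-5224930, had its median summit 727 bp beyond the 3′ end of HBB. The second, chr11:5234519-5234690, was the peak 167 bp upstream of the HBD start. The third, chr11:5244526-5244946, lay in the body of BGLT3, a long noncoding RNA gene between the HBBP1 pseudogene and HBG1. A further 4 sites were in the control region and were named by their distance upstream of the HBE1 start. HS1 was chr11:5275675-5276218 at 6.0 kb, HS2 chr11:5280615-5281152 at 10.8 kb, HS3 chr11:5284331-5285131 at 14.8 kb and HS4 chr11:5287993-5288570 at 18.3 kb. The last site, chr11:5303569-5304103, lay 33.8 kb upstream of HBE1 and 1838 bp from the olfactory receptor gene OR51B4, and is called the OR51B4-side site here. No library had a peak at the position of HS5.

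**Figure D1:**
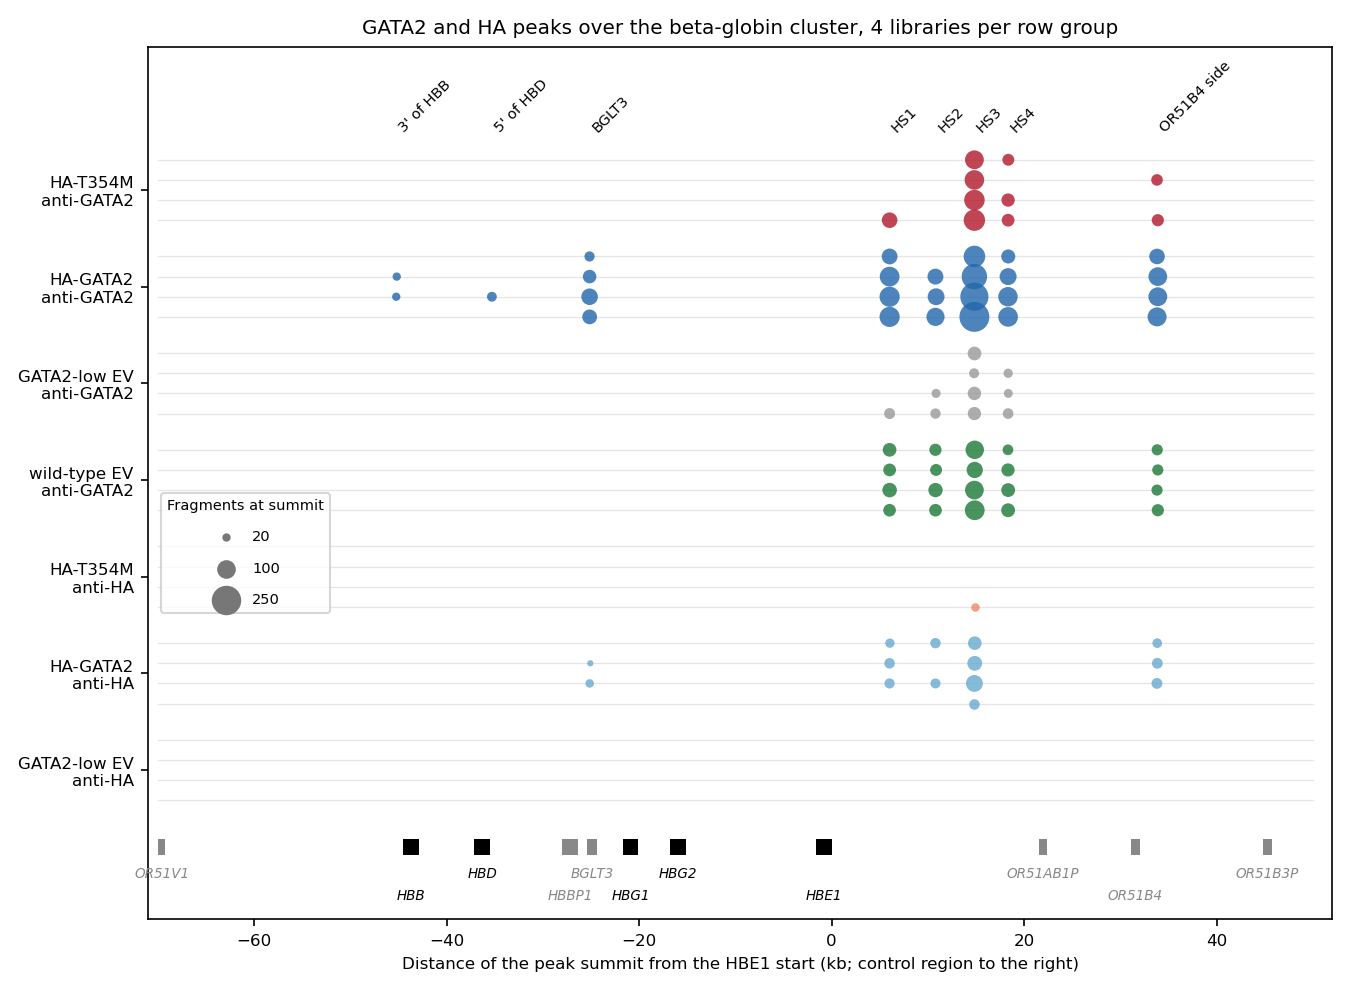
Peaks over the beta-globin window by distance of the summit from the HBE1 start in kb, with 4 libraries per group running down from replicate 1 to 4 and genes as boxes at the bottom (the 5 members in black). Dot area is the number of fragments at the summit. Dots fill the HS1 to HS4 positions in all wild-type and, apart from HS2 in replicate 1, all HA-GATA2 anti-GATA2 libraries, the column at 14.8 kb (HS3) is the most complete, and the empty-vector anti-HA rows hold none.

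None of the 28 libraries had a summit in the body of HBB, HBD, HBG1, HBG2 or HBE1. Within 1000 bp of a start, the count was 1 library for HBD and 0 for the other members. The fetal genes and the embryonic HBE1 were farther from any site. The nearest median summit was 3463 bp from HBG1 and 8382 bp from HBG2, both in BGLT3, and 6033 bp from HBE1, at HS1. A stretch of 30.7 kb between the BGLT3 site and HS1, which holds HBG1, HBG2 and HBE1, had no peak in any list. Other stretches without one were 24.7 kb at the HBB end of the window, 15.9 kb at its other end and 15 kb between HS4 and the OR51B4-side site. Outside the window the nearest sites were 47726 bp away on the HBB side, with a peak in 19 libraries, and 15215 bp away on the other, with a peak in 2.

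The deposited lists differed in length, which bears on every count of libraries with a peak. With anti-GATA2 they held 2779 to 6311 peaks for HA-T354M, 7064 to 12171 for HA-GATA2, 1823 to 3648 for the GATA2-low empty vector and 6555 to 9121 for the wild-type empty vector. With anti-HA they held 426 to 744 for HA-T354M, 1912 to 6065 for HA-GATA2 and 1 to 6 for the empty vector. The number of whole fragments at each summit was recovered from the deposited fold and p, within 0.03%, for all 81 peaks of the window. The background of a library, the lowest local background shared by 5 peaks, served as its depth estimate. It was 0.42 to 0.587 fragments for HA-T354M, 0.397 to 0.432 for HA-GATA2, 0.153 to 0.213 for the GATA2-low empty vector and 0.222 to 0.302 for the wild-type empty vector with anti-GATA2. The empty-vector groups were thus the shallower of the 4, and an absent peak means only that a library did not reach the caller's threshold, a -log10 q of 6.0 or more.

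The number of the 8 sites varied within groups as well as between them. With anti-GATA2, HA-T354M libraries 1 to 4 had 2, 2, 2 and 4 sites, HA-GATA2 libraries 5, 7, 8 and 6, GATA2-low empty-vector libraries 1, 2, 3 and 4, and wild-type libraries 5 in each. HA-GATA2 and wild-type libraries all lay above the HA-T354M libraries in this count. As a percent of each list, the anti-GATA2 groups overlapped. The cluster made up 0.0357 to 0.0717% of HA-T354M lists and 0.0528 to 0.0706% of HA-GATA2 lists. For the GATA2-low empty vector it was 0.0544 to 0.128%, and for wild type 0.0546 to 0.076%. With anti-HA, HA-T354M libraries had 0, 0, 0 and 1, HA-GATA2 libraries 4, 4, 5 and 1, and empty-vector libraries 0 in each. With each antibody the groups with the most sites had the longest lists, and the part of list length in these counts was not tested.

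HS3 was the most widely occupied site of the cluster, with a peak in 21 of 28 libraries and in all 16 anti-GATA2 libraries. At its summit, HA-T354M libraries had 102, 110, 121 and 131 fragments with anti-GATA2, HA-GATA2 libraries 134, 186, 228 and 258, GATA2-low empty-vector libraries 54, 29, 52 and 51, and wild-type libraries 98, 76, 101 and 112. Before division by depth, all 4 HA-GATA2 libraries were above every other library, HA-T354M and wild-type libraries overlapped, and the GATA2-low empty-vector libraries were the lowest. This order is not particular to HS3. By exact permutation of undivided fragments, HA-GATA2 was higher than the GATA2-low empty vector at 99.6% of 1192 shared sites. The GATA2-low empty vector was lower than wild type at 96.7% of 1201. Over the library's background the order differed: HA-GATA2 had 314 to 649, wild type 252 to 504, the GATA2-low empty vector 172 to 334 and HA-T354M 188 to 312. HA-GATA2 then overlapped both empty-vector groups. With anti-HA, HA-GATA2 libraries had 53, 63, 82 and 32 fragments, and 1 HA-T354M library had 21. The 32 fragments of replicate 4 gave a -log10 q of 6.04, the last place in its list of 1925 peaks (1912 on the chromosomes used).

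HS4 had a peak in 14 libraries, all of them with anti-GATA2. HA-T354M libraries 1, 3 and 4 had 41, 51 and 47 fragments there, HA-GATA2 libraries 57, 83, 109 and 111, GATA2-low empty-vector libraries 2, 3 and 4 had 25, 23 and 33, and wild-type libraries 33, 50, 55 and 55. HA-GATA2 libraries were again the highest before division by depth. Against the GATA2-low empty vector, 99.6% of 1192 shared sites went the same way. Over background they had 134 to 279 and wild-type libraries 114 to 248, which overlapped. No anti-HA library listed a peak at HS4.

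HS1 had a peak in 13 libraries and HS2 in 11. At HS1 with anti-GATA2, the 1 HA-T354M library with a peak had 70 fragments, HA-GATA2 libraries 72, 112, 117 and 117, the 1 GATA2-low empty-vector library with a peak 35, and wild-type libraries 54, 47, 61 and 46. At HS2, HA-GATA2 libraries 2, 3 and 4 had 73, 82 and 95, GATA2-low empty-vector libraries 3 and 4 had 24 and 31, and wild-type libraries 43, 41, 59 and 46. HS2 was the control region site at which no HA-T354M library, with either antibody, listed a peak. With anti-HA, HA-GATA2 libraries 1, 2 and 3 had 25, 32 and 30 fragments at HS1, and libraries 1 and 3 had 31 and 29 at HS2.

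The BGLT3 site was listed in HA-GATA2 cells alone, with a peak in 6 libraries. Their fragments numbered 11 and 21 in replicates 2 and 3 with anti-HA, and 30, 53, 79 and 63 with anti-GATA2. The sites beside the adult genes were weaker still. The HBB site had 20 fragments in each of HA-GATA2 replicates 2 and 3 with anti-GATA2, and the HBD promoter 28 in replicate 3. On the far side of the control region, the OR51B4-side site had a peak in 13 libraries. HA-T354M libraries 2 and 4 had 39 and 43 fragments there with anti-GATA2, HA-GATA2 libraries 70, 101, 102 and 104, and wild-type libraries 36, 36, 36 and 43, while HA-GATA2 libraries 1, 2 and 3 had 27, 34 and 34 with anti-HA.

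**Figure D2:**
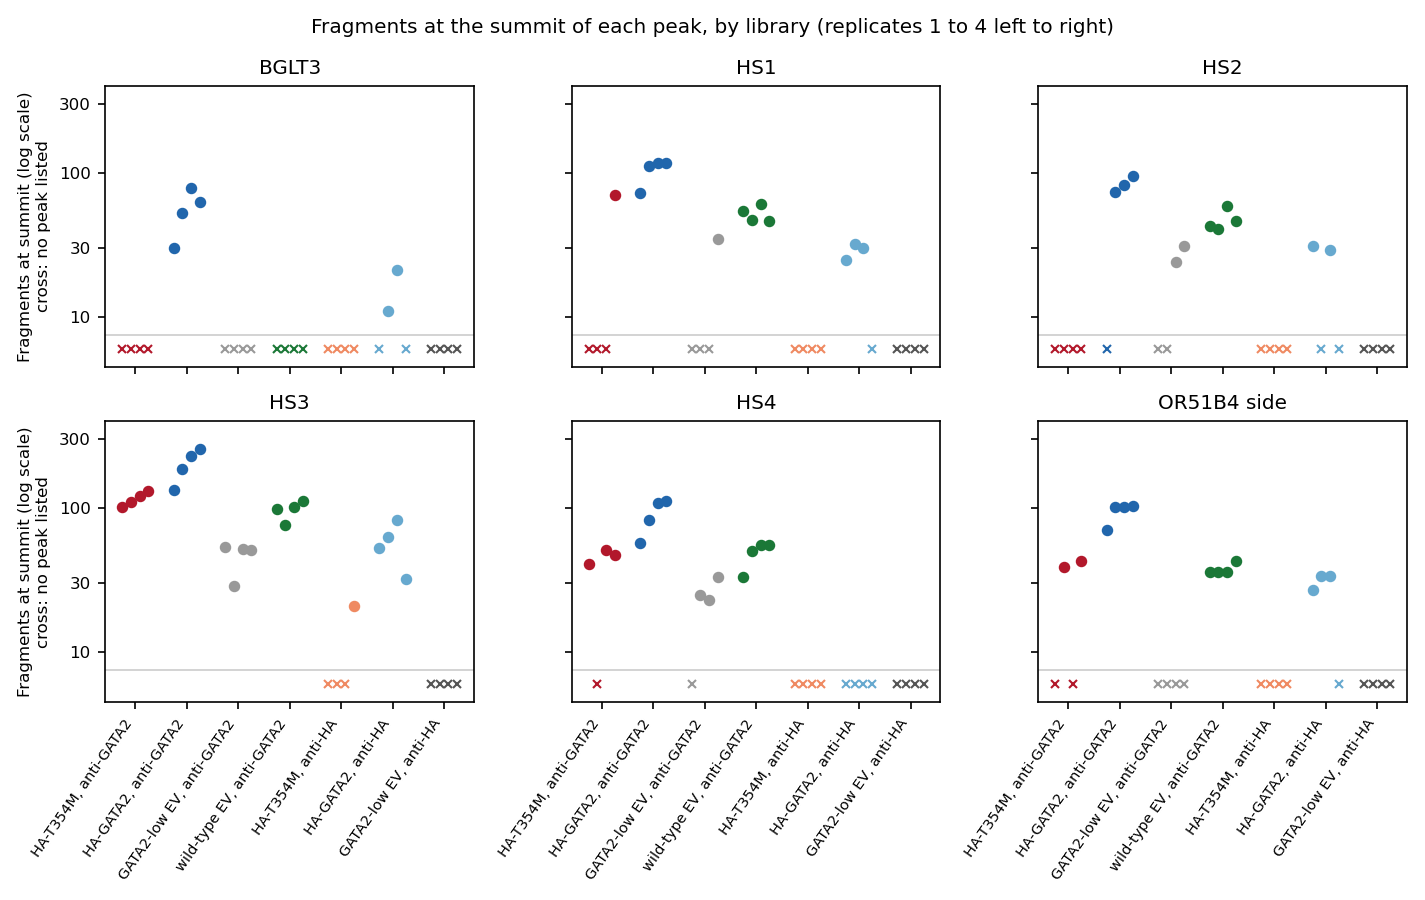
Fragments at the peak summit on a log axis for 6 sites, by library, with replicates 1 to 4 left to right in each group and a cross below the line where no peak was listed. Fragments are not divided by depth. At every site the HA-GATA2 anti-GATA2 libraries with a peak include the highest value, and at HS3 all 16 anti-GATA2 libraries have a peak.

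The order of the sites within a library depended on the measure. By fragments, HS3 was the highest in all libraries with at least 2 sites, and it exceeded HS4 in all 14 libraries with both (median ratio 2.25, range 1.16 to 2.97) and the OR51B4-side site in all 13 (median 2.41). By the deposited fold over local background, HS3 was below the OR51B4-side site in all 13 (median ratio 0.396) and below HS4 in 13 of 14 (median 0.66). The OR51B4-side site had the highest fold in all 4 HA-GATA2 and all 4 wild-type libraries with anti-GATA2 and in the 3 HA-GATA2 anti-HA libraries that listed it. In GATA2-low empty-vector libraries with at least 2 sites, HS4 had the highest fold in 3 of 3.

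The 2 measures part because the local background differs along the cluster. At HS3 it was 18.4 to 26.0 fragments in HA-T354M, 19.0 to 20.1 in HA-GATA2, 5.33 to 8.35 in GATA2-low empty-vector and 6.81 to 10.1 in wild-type libraries with anti-GATA2. At the OR51B4-side site it was 1.42 and 2.00 in HA-T354M and 1.46 to 1.54 in HA-GATA2 libraries, and 0.681 to 0.899 in wild-type libraries. Background at HS1 was 3.00 times that at HS4 in the 10 anti-GATA2 libraries with both, and 9.0 times that at the OR51B4-side site in 9. The lowest and highest of each ratio were identical, so these libraries do not count as separate measurements of the background. Over all 12 libraries with HS1 and the OR51B4-side site, anti-HA included, that ratio ran from 2.03 to 9.0. Fold at HS1, HS2 and HS3 is therefore set against a higher background than fold at the flanks of the cluster.

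**Figure D3:**
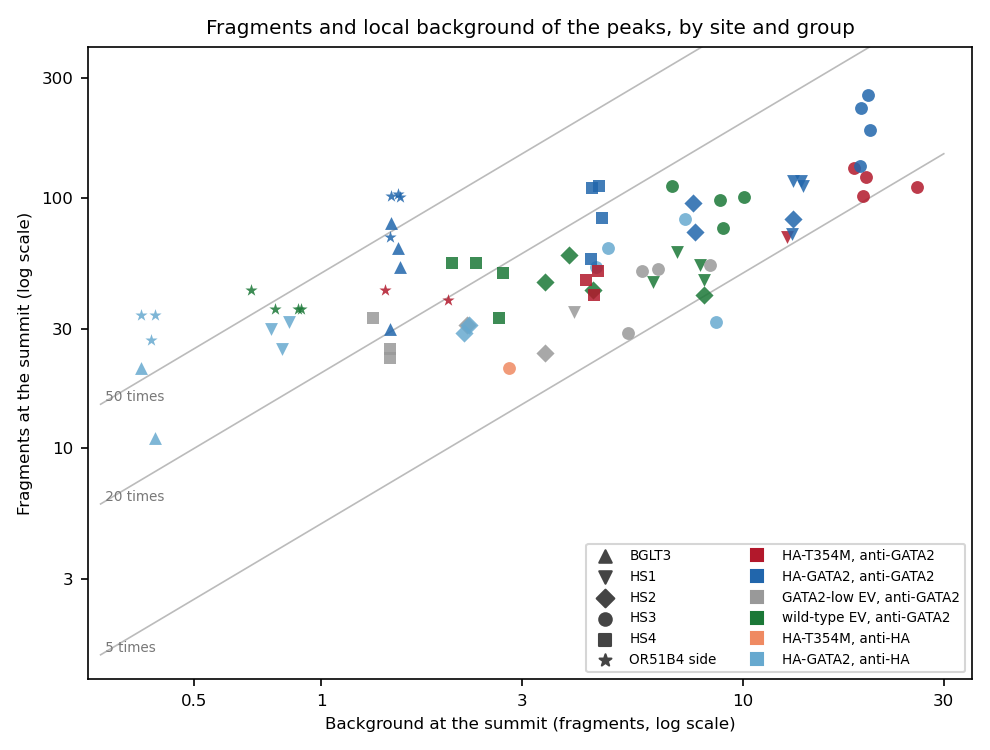
Fragments at the summit against the local background in fragments, both on log axes, for the 6 sites that occur in more than 2 libraries; shape gives the site and colour the group, and grey lines mark 5, 20 and 50 times background. HS3 lies at the top right with the most fragments and the highest background, and the OR51B4-side site at the upper left.

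The first comparison asked how the T354M protein differs from wild-type GATA2 in the same GATA2-low cells. At HS3, fragments over the library's background averaged 247 ± 53.2 in HA-T354M and 480 ± 143 in HA-GATA2 libraries (SD, n = 4 each) with anti-GATA2. The HA-T354M value was 0.515 times that of HA-GATA2, the groups did not overlap, and HS3 fell below its HA-GATA2 level by an exact two-sided permutation test (p = 0.0286, adjusted p = 0.0447 over 2389 sites with a peak in all 8 libraries). Of those 2389 sites, 63.8% passed in the same direction and their median ratio was 0.547, so the change at HS3 was close to that of the typical shared site. Divided by each library's median over the shared sites, the HS3 ratio was 0.985 with an adjusted p of 0.981. Leaving out each library in turn gave ratios of 0.461 to 0.583 and adjusted permutation p-values of 0.0421 to 0.0913, with a pass only without HA-GATA2 replicate 1. With a library fewer the exact test has less power, so the lost passes cannot tell dependence on a library from that loss.

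In the presence of peaks, HA-T354M differed completely from HA-GATA2 at 1 of the 8 sites. The BGLT3 site was listed in none of the 4 HA-T354M and in 4 of 4 HA-GATA2 libraries (Fisher's exact test, p = 0.0286, adjusted p = 0.279 over 14531 sites). Such a split, absent in HA-T354M, was found at 10.2% of the sites tested, which 1 of 8 does not set apart. HS1 was listed in 1 of 4 HA-T354M libraries and 4 of 4 HA-GATA2 libraries, HS2 in 0 and 3, HS4 in 3 and 4, and the OR51B4-side site in 2 and 4. No cluster site passed the adjusted Fisher test, and none of the 14531 sites did. Among the cluster sites, BGLT3 alone reached the unadjusted p of 0.0286. At the background seen in the other tagged libraries, a peak would have needed 17 to 24 fragments at BGLT3, 48 to 66 at HS1 and 34 to 66 at HS2 in the HA-T354M libraries that had none, so a lower signal was not detectable there.

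Re-expression of GATA2 was compared with the empty vector in GATA2-low cells. With anti-GATA2, the BGLT3 and OR51B4-side sites were listed in 4 of 4 HA-GATA2 libraries and 0 of 4 with the empty vector (Fisher's exact test, p = 0.0286 each, adjusted p = 0.12 over 14107 sites). These are 2 of the 8 sites, beside 23.8% of all sites with the same split. HS1 was listed in 4 of 4 HA-GATA2 libraries and 1 of 4 with the empty vector, HS2 in 3 and 2, HS3 in 4 and 4, and HS4 in 4 and 3. HS3 over background averaged 480 ± 143 in HA-GATA2 and 270 ± 74.0 in empty-vector libraries (SD, n = 4 each), with a ratio of 1.78 against a median of 1.66 over 1192 shared sites. The 2 groups overlapped at HS3 (exact permutation p = 0.0857, adjusted p = 0.119), and none of the 1192 shared sites passed this test in either direction. The raw fragments gave 4.33 and passed (exact permutation, adjusted p = 0.0287), as did 99.6% of the shared sites in that direction. Divided by each library's median over the shared sites, the ratio was 0.981 (exact permutation, adjusted p = 0.985).

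HA-T354M was then compared with the empty vector in GATA2-low cells. No cluster site split completely between HA-T354M and the empty vector, beside 5.87% of 7613 sites with a peak in all HA-T354M and no empty-vector library, and 0.0394% with the opposite split. HS1 had a peak in 1 of 4 libraries of each group, HS2 in 0 of 4 HA-T354M libraries and 2 of 4 with the empty vector, HS3 in 4 of each, HS4 in 3 of each, and the OR51B4-side site in 2 of 4 HA-T354M libraries and 0 of 4 with the empty vector. HS3 over background was 247 ± 53.2 in HA-T354M and 270 ± 74.0 in empty-vector libraries (SD, n = 4 each). The ratio was 0.916, with overlapping groups and an exact permutation p of 0.743 (adjusted p = 0.964 over 1197 sites). None of those 1197 sites passed in either direction. Without division by background, the same comparison gave 2.49 (exact permutation, adjusted p = 0.0288; 99.3% of the shared sites passed in that direction), and the HA-T354M libraries had the higher background (0.42 to 0.587, against 0.153 to 0.213 fragments in empty-vector libraries).

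**Figure D4:**
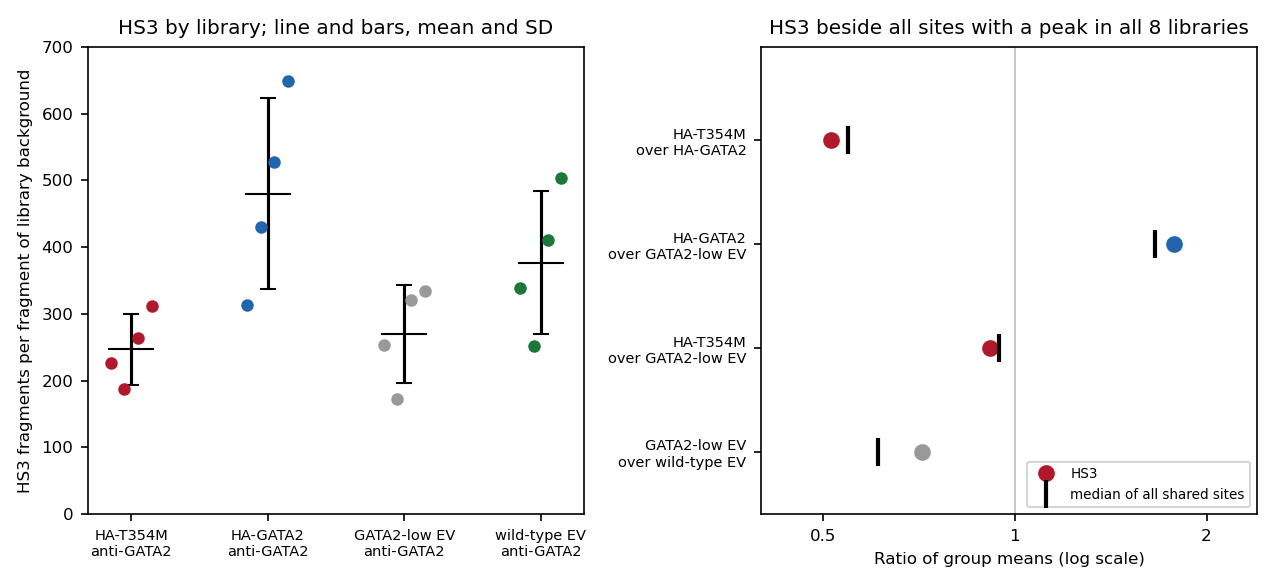
Left, fragments at HS3 over the library's background for the 4 anti-GATA2 groups, with each library as a point and the mean and SD as bars. Right, ratio of group means at HS3 (circles) beside the median ratio of all sites with a peak in all 8 libraries (bars), on a log axis. HS3 at 0.515 for HA-T354M over HA-GATA2 lies close to the median of 0.547.

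Loss of GATA2 was read from the empty-vector groups, GATA2-low against wild type. The OR51B4-side site had a peak in 0 of 4 GATA2-low and 4 of 4 wild-type libraries (Fisher's exact test, p = 0.0286, adjusted p = 0.209 over 11156 sites), 1 of 5 cluster sites tested beside 13.7% of all sites. HS1 had a peak in 1 of 4 GATA2-low and 4 of 4 wild-type libraries, HS2 in 2 and 4, HS4 in 3 and 4, and HS3 in 4 of each. HS3 over background averaged 270 ± 74.0 in GATA2-low and 377 ± 107 in wild-type libraries (SD, n = 4 each). Its ratio of 0.716 was above the median of 0.61 over 1201 shared sites, the groups overlapped, and the difference did not pass (exact permutation p = 0.171, adjusted p = 0.205). None of the 1201 shared sites passed this test in either direction. Divided by each library's median over the shared sites, the ratio turned to 1.23, which did not pass either (exact permutation, adjusted p = 0.439). The raw fragments did not overlap (ratio 0.481, exact permutation adjusted p = 0.0296), as at 96.7% of the shared sites. One of the GATA2-low libraries, replicate 1, carries a wild-type genotype label beside its GATA2-low title, and it had 1 cluster site, HS3.

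The tagged groups were also set beside wild-type cells, a contrast in which genotype and vector both differ. BGLT3 was listed in 4 of 4 HA-GATA2 libraries and 0 of 4 wild-type ones, beside 7.94% of sites with that split (Fisher's exact test, adjusted p = 0.312). HS2 was listed in 0 of 4 HA-T354M libraries and 4 of 4 wild-type ones, beside 4.03% (Fisher's exact test, adjusted p = 0.639). At the 4 sites with a peak in every HA-GATA2 and wild-type library, fragments over background averaged 248 ± 55.1 and 200 ± 38.8 at HS1, 480 ± 143 and 377 ± 107 at HS3, 214 ± 65.1 and 188 ± 60.0 at HS4, and 224 ± 41.9 and 146 ± 33.8 at the OR51B4-side site (SD, n = 4 each, HA-GATA2 given before wild type). All 4 overlapped between the groups. The ratios were 1.24, 1.28, 1.14 and 1.53, around a median of 1.12 over 3625 shared sites, with exact permutation adjusted p-values of 0.46, 0.515, 0.716 and 0.219. HS3 in HA-T354M was 0.656 times the wild-type level, where 2231 shared sites had a median of 0.627 (exact permutation p = 0.0857, adjusted p = 0.141). None of the 3625 or the 2231 shared sites passed the permutation test in either direction.

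Anti-HA libraries read the tagged protein without the cells' own GATA2. HS3 was listed in 4 of 4 HA-GATA2 libraries and 0 of 4 with the empty vector (Fisher's exact test, p = 0.0286, adjusted p = 0.113 over 6916 sites), 1 of 5 cluster sites beside 25.3% of all sites. The empty-vector lists held 1 to 6 peaks, so their 0 of 4 was near certain at any site. Such a split thus reflects presence in the HA-GATA2 libraries alone. HS1 and the OR51B4-side site were listed in 3 of 4 HA-GATA2 libraries, and HS2 and BGLT3 in 2 of 4. HA-T354M had 1 cluster peak with anti-HA, at HS3 in replicate 4. That left no complete split against the empty vector, beside 22.3% of 1079 sites with a peak in all HA-T354M and no empty-vector library. It left none against HA-GATA2 either, beside 13.6% of 6944 sites with a peak in no HA-T354M and all HA-GATA2 libraries. HS3 over background was 59.0 in that HA-T354M library and 145 ± 60.1 in HA-GATA2 libraries (SD, n = 4). With anti-HA no cluster site passed the adjusted Fisher test, and no site of the genome did in any of these comparisons. Among the cluster sites, the unadjusted p of 0.0286 was reached by HS3 alone, for HA-GATA2 over the empty vector.

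Between the antibodies in HA-GATA2 cells, HS4 had a peak in 0 of 4 anti-HA and 4 of 4 anti-GATA2 libraries (p = 0.0286 by Fisher's exact test, adjusted p = 0.272), beside 10.5% of 14456 sites. HS1 was listed in 3 of 4 anti-HA libraries and had 72 to 117 fragments with anti-GATA2, and HS4, listed in 0 anti-HA libraries, had 57 to 111 fragments with anti-GATA2. The difference between HS1 and HS4 was not tested. In HA-T354M cells no cluster site split completely between the antibodies, beside 23.1% of 7235 sites with a peak in no anti-HA and all anti-GATA2 libraries, and 0.0138% with the opposite split.

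The library pattern of most cluster sites was shared by other sites of the genome. Outside the window, 44 of 17269 sites had peaks in exactly the same libraries out of 28 as HS3, and those with the highest mean rank lay in BLTP3A, MYH9 and DNAI4. The pattern of BGLT3 was shared by 88 sites, with the highest near C7 and NEDD4L and in CDKAL1. HS4 shared its pattern with 10 sites and HS1 with 5. HS2 and the OR51B4-side site had no exact match; the nearest 3 and 21 sites differed in 1 library.

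On a wider measure, a summit in the gene body or within 10 kb, all 5 members had a peak in at least 1 library. With anti-GATA2, HBE1 had one in 1 of 4 HA-T354M, 4 of 4 HA-GATA2, 1 of 4 GATA2-low empty-vector and 4 of 4 wild-type libraries. HBG1 and HBG2 had one in 4 of 4 HA-GATA2 libraries, HBB and HBD in 2 of 4, and these 4 genes had none in the other anti-GATA2 groups. HBG1 and HBG2 were both counted from the BGLT3 summit, so they are not separate sites. Their complete splits were 2 of 5 members for HA-GATA2 over the empty vector, beside 23.4% of all genes tested. Against HA-T354M they were also 2 of 5, beside 8.3%. HBD had its own peak in 1 library and was otherwise counted from the summit 3′ of HBB. In the alpha-globin cluster, whose genes make the partner chains, 2 of 6 genes had such a summit in any library. HBZ, the embryonic zeta chain gene, had one in 0 of 4 HA-T354M, 3 of 4 HA-GATA2, 0 of 4 GATA2-low empty-vector and 1 of 4 wild-type libraries with anti-GATA2. NPRL3, whose introns hold the distal alpha-globin enhancers, had one in 4, 4, 3 and 4, and in 2 of 4 HA-GATA2 libraries with anti-HA.

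Of 30 genes in a list of globin regulators, 26 had a summit within 10 kb in HA-T354M or HA-GATA2 anti-GATA2 libraries, and 16 had one in all 8, where the shares of all 20052 protein-coding genes were 35.2% and 8.52%. Between these groups 0 split completely, beside 8.3% of 7056 genes absent in HA-T354M and present in HA-GATA2. Those covered in all 16 anti-GATA2 libraries include GATA1, the later erythroid GATA factor, its cofactor ZFPM1, the blood cell factors RUNX1 and TAL1, NFE2, which binds HS2, and NFIX. LDB1, which links the control region to the globin promoters in a complex with TAL1 and LMO2, had a summit in 0 of 4 GATA2-low and 4 of 4 wild-type empty-vector libraries, as did the stress factor ATF4 and the insulator factor CTCF, 3 of 24 genes beside 15.8% of 6953. LDB1 and CHD4 had an anti-GATA2 summit in 4 of 4 HA-GATA2 libraries and 0 of 4 with the empty vector, 2 of 26 regulators beside 23.4%. CHD4, a nucleosome remodeller, was the 1 list gene with an anti-GATA2 summit in 4 of 4 HA-T354M libraries and 0 of 4 with the empty vector. That is 1 of 24 regulators beside 4.29%.

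With anti-HA, ZFPM1 and NFIX had a summit in 4 of 4 HA-T354M and 4 of 4 HA-GATA2 libraries. They are 2 of 30 regulators, beside 0.943% of all 20052 protein-coding genes. Both were absent with the empty vector, so HA-T354M split completely from it at 2 of 9 regulators, beside 23.0% of 853 genes. The erythroid activator KLF1, the progenitor factor MYB, LMO2, NFIA and the heme-sensing kinase EIF2AK1 had one in 0 of 4 HA-T354M and 4 of 4 HA-GATA2 libraries, 5 of 22 genes beside 14.0% of 4033. The HA-T354M anti-HA lists were the shorter (426 to 744 peaks, against 1912 to 6065 for HA-GATA2), and the part of list length in this count was not tested. With either antibody, BCL11A, the repressor of the fetal globin genes, had a summit in 1 HA-GATA2 anti-GATA2 library and no other. Of the heme synthesis genes, 3 of 7 with a peak had a summit in 4 of 4 HA-T354M libraries and 0 of 4 with the empty vector, all with anti-HA, beside 23.0% of 853 genes. The enzyme FECH and the transporter ABCB10 were among them. The mitochondrial iron importer SLC25A37 had one in 0 of 4 HA-T354M and 4 of 4 HA-GATA2 libraries with anti-HA, 1 of 12 genes beside the 14.0% above. With anti-GATA2, the enzymes ALAD and UROD had one in 0 of 4 GATA2-low and 4 of 4 wild-type empty-vector libraries, 2 of 12 beside the 15.8% above. Both had one in 4 of 4 HA-GATA2 libraries and 0 of 4 with the empty vector, 2 of 13 beside 23.4%. No list gene passed the adjusted Fisher test in any of the 7 comparisons, and no gene of the genome did either. The complete splits named here reached the unadjusted p of 0.0286.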

How the data were processed

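CUT&Tag of HUDEP-2 cells was deposited as peak lists. Of 36 libraries described, the 28 with a peak list were used, and the 8 IgG libraries were not analysed here. Groups and replicate numbers were read from the titles. Per the submitters' processing notes, the tools included MACS2 2.2.7.1, Bowtie2 2.2.5 and hg38, beside cutadapt 3.3 and deepTools 3.5.3, with settings not given in the sources used here. The authors deposited peaks per library, each with a fold enrichment (a linear ratio over local background), p and q as -log10 values, and a score of 10 times the -log10 q. These values are the authors' and were used to describe peaks, to rank them within a list and to recover fragments.

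Of 120964 peaks, 455 outside chromosomes 1 to 22 and X were left out, and the rest were merged into sites at an overlap of 1 bp. Whole fragments and background at each summit were solved from fold and p. The solver, the Fisher test and the permutation test were tested on simulated data. Presence per site was compared with Fisher's exact test, adjusted by Benjamini-Hochberg over every site with a peak in either group. With 4 libraries against 4, this exact test cannot go below p = 0.0286. After adjustment no site of the genome passed it in any comparison, so a cluster site that did not pass is not set apart. Fragments over background were compared by exact permutation of the libraries on the log2 scale, at sites with a peak in all 8; this test was added after the data were seen. Counting error alone limits each fragment number, and PCR copies are not independent molecules. Coordinates are 1-based. Gene positions came from RefSeq (GRCh38.p14), which matched all 49 list genes; of the 5 members, HBD matched a promoter sequence. The text names all sites of the window, and list genes with a complete split or a peak in all libraries of a comparison (up to 6 per list, by number of libraries), besides HBZ and BCL11A, chosen after their values were seen. A result for 1 gene of the heme list is not reported here. The members and gene lists were chosen with earlier results of these data known. Python 3.11.15, numpy 2.4.6, pandas 2.3.3 and scipy 1.17.1 were used.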

Additional observations from a re-analysis of the deposited data

Results flagged for a closer look

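The gap between 1 library and the other 3 of its group was unusually wide, relative to the group's range, in 8 of 20 sets of 4 values; for continuous values, chance flags about 1 set in 20. That rate does not hold for the 2 sets of site counts flagged, where 3 libraries are tied. The number of cluster sites was 4 in HA-T354M replicate 4 with anti-GATA2, where the other replicates had 2 each, and 1 in HA-T354M replicate 4 with anti-HA, where they had 0. The remaining flags concern the percentile of a peak by -log10 q within its own list, where a higher value is a stronger place. HA-GATA2 replicate 1 with anti-GATA2 stood low at HS1, at 28.31, and at the OR51B4-side site, at 80.05, and its list of 7064 peaks was the shortest of its group. GATA2-low empty-vector replicate 2 stood low at HS3, at 10.1. Wild-type replicate 1 stood low at HS4, at 48.21, and wild-type replicate 4 stood high at the OR51B4-side site, at 78.47. HA-GATA2 replicate 4 with anti-HA stood low at HS3, at 0.02597, the last place in its list. The causes were not tested.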

How the results depend on the processing

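The count of cluster sites that split completely was 1 for the GATA2-low over the wild-type empty vector, 2 for HA-GATA2 over the empty vector and 1 for HA-T354M over HA-GATA2 with anti-GATA2, and 1 for HA-GATA2 over the empty vector with anti-HA. With lists of equal length these counts were 0, 1, 0 and 0, and with a -log10 q of at least 15 the anti-HA count was 0. The anti-HA empty-vector lists held 1 to 6 peaks, so at equal length the anti-HA count could hardly differ from 0. It says nothing about stability. Adjustment over only the sites that could pass called 1, 2, 1 and 1 of them, against 0 over all sites; fewer sites enter that adjustment. Leaving out each library gave 1 to 2, 2 to 3, 1 to 2 and 1 to 3 complete splits, and 0 to 2 for HA-T354M over HA-GATA2 with anti-HA. The highest counts came without GATA2-low empty-vector replicate 4, without HA-T354M replicate 4 or HA-GATA2 replicate 1, and, with anti-HA, without HA-GATA2 replicate 4; without HA-T354M replicate 4 the last count was 1. Adjusted Fisher calls were 0 without any 1 library. That says nothing about stability, since no site of the genome passed with all libraries either.

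At HS3, fragments not divided by background gave 0.481 for the GATA2-low over the wild-type empty vector, 4.33 for HA-GATA2 over the empty vector and 2.49, in the opposite direction, for HA-T354M over the empty vector, all of which passed; the depth estimates differ between these groups. Divided by the library median over shared sites, HA-T354M over HA-GATA2 was 0.985 and no longer passed, the GATA2-low over the wild-type empty vector turned to 1.23, HA-GATA2 over the empty vector to 0.981, and neither of these passed. Leaving out each library gave ratios of 0.645 to 0.807 for the GATA2-low over the wild-type empty vector, 1.57 to 1.99 for HA-GATA2 and 0.818 to 0.995 for HA-T354M over the empty vector, and 0.461 to 0.583 for HA-T354M over HA-GATA2.

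With the replicate number as a block (exact McNemar test), 0 cluster sites passed in every comparison, which says nothing about stability, since 4 pairs cannot give an exact p below 0.125. Same-numbered libraries did not deviate together, with correlations of -0.106 to 0.117, so the numbers were not taken to pair the libraries. An absent peak shows only that a library did not reach the caller's threshold, and the part of depth in it was not tested.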
